A study of Mus musculus with 24 samples.

Results

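Interferon-stimulated genes were examined in mouse dorsal root ganglia (DRG), the clusters of sensory neurons, glia and immune cells beside the spinal cord. The set was a fixed list of 41 genes, taken by symbol from a table of 24421 genes, and all 41 symbols were found in it. The series held L4/5 DRG of C57BL/6 mice, and its stated aim was to relate the RNA mark m6A and the methyltransferase subunit Mettl14 to the response to sciatic nerve injury. RNA-seq covered 4 groups of 3 libraries: wild type naive, wild type at SNLD1 (1 day after sciatic nerve lesion), Mettl14cKO naive and Mettl14cKO at SNLD1, where the Mettl14cKO animals carry the genotype label Mettl14-/-. MeRIP-seq covered wild type DRG with 3 m6A immunoprecipitates (IP) and 2 inputs in each of the naive and SNLD1 conditions, and miCLIP gave 1 list of m6A sites for naive and 1 for injured wild type DRG, the latter without a stated day. The labels give sham surgery or crush of the sciatic nerve as the treatment of all samples, so whether the naive animals were operated on is not settled by them. They name neither the promoter of the conditional knockout nor the cells it acts in. Nothing in them says that replicates came from separate animals, so p-values measure the spread between these libraries, which may in part be technical.

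Type I interferons signal through receptors and JAK kinases to a complex that holds STAT2 and IRF9 and binds a short response element in the promoters of its target genes, whereas interferon gamma acts mainly through gamma-activated sites. The targets include sensors of foreign nucleic acid, enzymes that attach or remove the ubiquitin-like protein ISG15, antiviral effectors, GTPases that attack the compartments of intracellular microbes, and parts of the antigen-processing machinery. Many sit at low levels in resting tissue and rise together within hours of an interferon signal. In bulk tissue such as whole DRG, fewer cells of a type and less RNA per cell cannot be told apart.

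The promoter letters of the called genes are shown because these genes moved together after injury. RefSeq promoters of build GRCm38.p6, from 250 bases before to 50 bases after the gene's start, were at hand for 31 of the 41 members; those without one were Iigp1, Mx1, Mx2, Nlrc5, Oas2, Parp9, Parp14, Rtp4, Usp18 and Zbp1. The core of the interferon-stimulated response element was searched as GAAA, any 2 bases and GAAA on both strands, which on the printed strand can also read TTTC, any 2 bases and TTTC. It occurred in promoters of 16 of the 31 members (51.6%), against 3.91% of all 17224 RNA-seq genes that had a promoter. A gamma-activated site, spelled TTCNNNGAA on both strands, occurred in 9 of the 31 (29.0%), against 9.27% of those genes. A match of letters describes the sequence and does not show that a factor bound there.

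The 150 bases before the start are printed here 5′ to 3′ on the gene's own strand, with the response element letters in capitals, for 6 of the called genes. Igtp lies at chr11:58199406-58199555 (plus strand), Irgm2 at chr11:58214827-58214976 (plus strand), Irgm1 at chr11:48871421-48871570 (minus strand), Ifit1 at chr19:34640739-34640888 (plus strand), Gbp2 at chr3:142620513-142620662 (plus strand) and Rsad2 at chr12:26456453-26456602 (minus strand).
Igtp: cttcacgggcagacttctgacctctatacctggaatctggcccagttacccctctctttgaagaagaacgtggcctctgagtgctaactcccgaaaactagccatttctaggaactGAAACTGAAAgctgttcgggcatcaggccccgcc
Irgm2: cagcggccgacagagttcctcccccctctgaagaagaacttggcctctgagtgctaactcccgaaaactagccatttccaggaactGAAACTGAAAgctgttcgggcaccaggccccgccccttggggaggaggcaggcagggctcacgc
Irgm1: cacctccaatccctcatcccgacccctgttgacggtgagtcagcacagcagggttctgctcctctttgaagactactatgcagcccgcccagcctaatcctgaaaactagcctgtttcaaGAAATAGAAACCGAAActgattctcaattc
Ifit1: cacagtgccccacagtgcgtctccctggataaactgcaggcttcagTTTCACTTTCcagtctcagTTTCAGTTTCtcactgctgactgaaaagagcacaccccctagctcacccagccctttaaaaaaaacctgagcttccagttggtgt
Gbp2: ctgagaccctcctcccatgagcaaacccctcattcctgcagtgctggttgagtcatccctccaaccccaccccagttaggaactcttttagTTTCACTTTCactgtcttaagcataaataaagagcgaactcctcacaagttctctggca
Rsad2: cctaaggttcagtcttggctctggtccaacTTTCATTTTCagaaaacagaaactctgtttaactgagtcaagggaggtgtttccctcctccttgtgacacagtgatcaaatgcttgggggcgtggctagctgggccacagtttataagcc
The match began 34 bases before the start in Igtp and 64 bases before it in Irgm2, and the windows of this neighbouring pair of GTPase genes shared a run of 38 identical bases. Irgm1 held a pair of matches, 30 and 24 bases before its start, which overlap each other. Ifit1 held separate matches at 104 and 85 bases, Gbp2 held 1 at 59 and Rsad2 held 1 at 120 bases. Of the 9 members called after injury in either genotype, 7 had a promoter in the table and all 7 held a match, that of Stat2 lying 222 bases before its start. Cmpk2, which lies beside Rsad2 on chromosome 12, held neither set of letters. Neither did other members, among them Oasl2, Irf9, Trim25, Dtx3l and Xaf1, whose log2 fold changes in wild type were above 0. Whether the letters go with the injury change was not tested.

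RNA-seq libraries held 5707837 to 12639160 counts and MeRIP-seq libraries 846785 to 19653733, a range of 23.2 times within MeRIP-seq. Levels are given as CPM, a gene's counts scaled to a common library size with edgeR's TMM factors; they are not divided by gene length, so levels of different genes are not compared. Markers of sensory neurons summed to between 13410 and 17429 CPM in every RNA-seq library, with all 10 markers detected. Mettl14 stood at 23.3, 22.9 and 24.1 CPM in wild type naive libraries against 14.2, 18.9 and 15.02 in Mettl14cKO naive libraries (log2 fold change -0.55, adjusted p = 0.316), and at 20.1, 20.7 and 19.4 against 14.2, 16.9 and 15.6 at SNLD1 (-0.36, adjusted p = 0.345). The Mettl14cKO libraries were thus lower in Mettl14 without overlap in both conditions, but the difference did not pass the test. Of the members, 39 passed edgeR's filter on low counts and were tested among 13291 genes. Oas2 stood between 0 and 1.03 CPM and Isg15 between 0.244 and 1.54 CPM, both too low to be tested. Among the tested members, Mx1 and Nlrc5 were so low that only 2 of the 6 naive libraries reached the level the filter asks for, so that they passed largely through other groups.

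In wild type DRG, 1 day after nerve injury, a minority of the interferon-stimulated genes rose past the test, and most of the others had fold changes of the same sign. By edgeR's quasi-likelihood test with Benjamini-Hochberg adjustment over all tested genes, 6 of the 39 tested members rose and 0 fell, where 0.948% of all tested genes rose and 0.0752% fell. The 6 were Ifit1, Iigp1, Stat2, Igtp, Mx2 and Gbp2. Log2 fold changes were above 0 for 37 of the 39, beside 47.1% of all tested genes, and their median was 0.75, beside -0.01 over all tested genes. For 18 members all 3 SNLD1 libraries lay above all 3 naive libraries, and for 1, Cmpk2, all lay below, beside 6.08% and 4.95% of all tested genes.

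Mettl14cKO DRG gave a like picture. There, 6 of the 39 rose and 0 fell, beside 0.624% and 0.0602% of all tested genes, and the 6 were Iigp1, Ifit1, Igtp, Irgm1, Irgm2 and Rsad2. Log2 fold changes were above 0 for 36 of the 39 (51.1% of all tested genes), with a median of 0.69 beside 0.01. All 3 SNLD1 libraries lay above all 3 naive libraries for 25 members and below them for 1, again Cmpk2, beside 8.32% and 9.38% of all tested genes. Ifit1, Iigp1 and Igtp rose in both genotypes, 9 members rose in at least 1, and 30 in neither. Non-overlapping higher levels were seen in both genotypes for 15 members. The shares of all tested genes for these joint counts were not taken. For both genotypes at once they cannot exceed 0.624% called higher and 6.08% apart upwards.

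**Figure D1:**
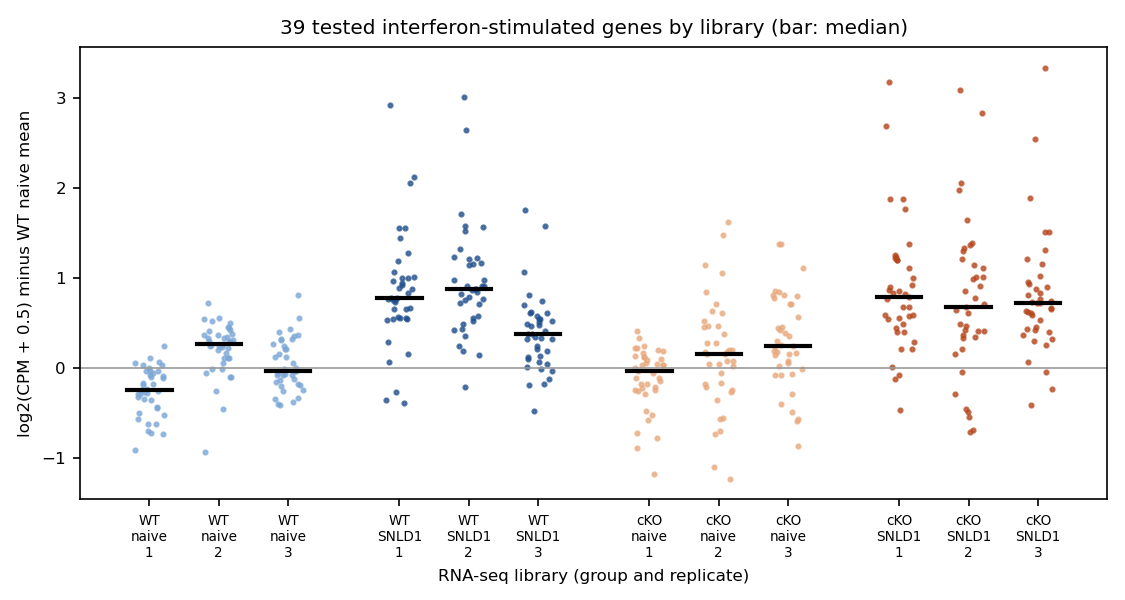
Each point is 1 of the 39 tested members in 1 RNA-seq library, as log2(CPM + 0.5) minus the mean of that gene over the wild type naive libraries; black bars are medians over members, and groups are coloured. The medians of the 6 naive libraries lie between -0.24 and 0.27 and those of the 6 SNLD1 libraries between 0.39 and 0.88, with the third wild type SNLD1 library lowest among the injured ones.

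Single libraries carried much of the spread, and they moved many members at once. Over the 39 tested members, the median deviation from the wild type naive mean, on the scale of log2(CPM + 0.5), was -0.24, 0.27 and -0.03 in wild type naive libraries 1 to 3 and 0.78, 0.88 and 0.39 in wild type SNLD1 libraries 1 to 3. In Mettl14cKO it was -0.03, 0.16 and 0.25 in naive libraries and 0.80, 0.68 and 0.73 at SNLD1. Wild type SNLD1 library 3 was the lowest of its group for 32 of the 39 members, and library 2 the highest for 24. Among naive libraries, wild type 1 was the lowest for 21 members and wild type 2 the highest for 24, and Mettl14cKO 1 was the lowest for 24. The plot of members by library shows that every naive median lay below every SNLD1 median.

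Markers of immune cells moved with some of these libraries. The 7 neutrophil markers in the table, all detected in every library, summed to 1423 CPM in wild type naive library 2 and 1670 CPM in wild type SNLD1 library 2, against 164 to 763 CPM in the other 10. The 12 macrophage markers, none of them at 0 in any library, summed to 77.3 to 99.95 CPM in wild type naive and 105 to 128 CPM in wild type SNLD1 libraries, which do not overlap, and to 94.6 to 139.9 and 97.4 to 203 CPM in the Mettl14cKO groups, which do. Monocyte markers (5, of which F10 was at 0 in 2 libraries) summed to 16.04 to 131 CPM in wild type naive, 30.7 to 141 in wild type SNLD1, 29.1 to 55.0 in Mettl14cKO naive and 43.1 to 113 in Mettl14cKO SNLD1 libraries. Summed markers of T and NK cells stayed at 9.04 CPM or below in all 12 libraries and those of B and plasmacytoid dendritic cells at 14.9 CPM or below. An alternative chosen after the data were seen left out the 2 wild type libraries rich in neutrophil markers. There 5 members rose in wild type, beside 107 of all 13447 tested genes. Of the 6 named above, Ifit1 (adjusted p = 0.00265), Stat2 (0.0155), Iigp1 (0.0313) and Igtp (0.0355) were among them. Gbp2 (log2 0.78, adjusted p = 0.124) and Mx2 (log2 1.62, adjusted p = 0.0990) lost their calls. The other, named here after its values were seen, was Rtp4, with a log2 fold change of 1.43 (adjusted p = 0.0355), beside 1.24 and no call with all libraries (adjusted p = 0.0766). The 2 libraries left out were also the highest of their groups in other marker sums. Among immune cells these were macrophages (99.95 CPM in naive and 128 CPM at SNLD1) and monocytes (131 and 141 CPM). Markers of B and plasmacytoid dendritic cells (12.5 and 14.9 CPM) and of T and NK cells (8.18 and 9.04 CPM) did likewise. Outside the immune lists they were satellite glia (1991 and 1813 CPM), Schwann cells (4377 and 4920 CPM) and fibroblasts (1971 and 2184 CPM). The part of neutrophils, of other immune cells or of these cells in the members' levels was not tested.

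Sensors of foreign nucleic acid and the oligoadenylate synthetases, which make the messenger that activates RNase L, gave no call in either genotype. The 5 tested were Ifih1, Ddx58, Zbp1, Oas1a and Oasl2. All 5 had log2 fold changes above 0 in both genotypes, from 0.33 to 0.98 in wild type and from 0.26 to 0.78 in Mettl14cKO. Oasl2, an oligoadenylate synthetase-like protein, stood at 54.6, 103 and 105 CPM in wild type naive and 145, 159 and 109.8 CPM in wild type SNLD1 libraries (log2 fold change 0.66, adjusted p = 0.264). In Mettl14cKO it stood at 89.4, 74.2 and 104 CPM in naive and 123, 119 and 126 CPM in SNLD1 libraries (0.46, adjusted p = 0.466). Its injured libraries lay above the naive ones in both genotypes, by a small margin in wild type.

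Among the transcription factors and regulators, Stat2 rose in wild type. Stat2 is a signal transducer that acts with IRF9 downstream of the type I interferon receptor. It stood at 13.0, 12.3 and 14.4 CPM in wild type naive and 27.3, 24.6 and 28.2 CPM in wild type SNLD1 libraries, a 2.01-fold rise (log2 1.01 ± 0.16 SE, adjusted p = 0.00256). In Mettl14cKO it went from 13.6, 13.97 and 14.8 CPM to 25.2, 23.1 and 22.3 CPM (log2 0.74 ± 0.17 SE, adjusted p = 0.0504), just outside the threshold of 0.05. The 6 naive libraries spanned only 12.3 to 14.8 CPM and none reached any injured library. Irf9, its DNA-binding partner, stood at 32.3, 53.3 and 35.6 CPM in wild type naive and 58.1, 67.4 and 45.1 CPM in wild type SNLD1 libraries (log2 0.50, adjusted p = 0.561), and at 34.8, 54.5 and 47.4 CPM against 63.8, 55.0 and 63.1 CPM in Mettl14cKO (0.41, adjusted p = 0.515). Irf1, Irf7, Nlrc5 (a transactivator of MHC class I genes) and Sp100 were not called either.

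Enzymes that handle ISG15, ubiquitin and ADP-ribose gave no call, with medians over the 6 tested members of 0.74 in wild type and 0.68 in Mettl14cKO. Usp18, which strips ISG15 from proteins and dampens signalling at the interferon receptor, varied widely between libraries. It stood at 6.67, 19.1 and 16.7 CPM in wild type naive and 55.5, 38.3 and 18.7 CPM in wild type SNLD1 libraries (log2 1.41 ± 0.39 SE, adjusted p = 0.133), where the lowest injured library fell below the highest naive one. In Mettl14cKO it stood at 10.8, 29.3 and 23.7 CPM in naive and 49.0, 55.5 and 37.9 CPM in SNLD1 libraries (log2 1.16 ± 0.39 SE, adjusted p = 0.238), without overlap. Parp9 and Dtx3l, which act as a complex, Parp14, the ISG15 ligase Herc6 and the ubiquitin ligase Trim25 ranged from 0.45 to 0.78 on the log2 scale in wild type and from -0.03 to 0.95 in Mettl14cKO.

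Antiviral effectors held the member of smallest p in wild type, Ifit1, and the only member that stood below its naive level in both genotypes, Cmpk2. Of the 12 effectors, Ifit1 and Mx2 rose in wild type and Ifit1 and Rsad2 rose in Mettl14cKO, beside 0.948% and 0.624% of all tested genes. In each genotype 7 had non-overlapping higher levels, beside 6.08% of all tested genes in wild type and 8.32% in Mettl14cKO. Ifit1, which binds viral RNA that lacks the cap methylation of host RNA, stood at 64.8, 120.1 and 87.7 CPM in wild type naive and 671, 556 and 265 CPM in wild type SNLD1 libraries, a 5.48-fold rise (log2 2.45 ± 0.32 SE, adjusted p = 0.000224). In Mettl14cKO it went from 90.3, 184 and 191 CPM to 572, 634 and 519 CPM, a 3.70-fold rise (log2 1.89 ± 0.31 SE, adjusted p = 0.00394). The lowest injured library in either genotype, wild type SNLD1 library 3, still lay above all 6 naive libraries. The annotated span of Ifit1bl1 overlaps Ifit1, so their reads may not be fully separable.

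Mx2 and Mx1 belong to a family of dynamin-like GTPases that block virus entry or replication. Both are annotated as transcribed pseudogenes in the GRCm38.p6 gene table, so their RNA levels do not speak for a working protein. The 2 are related in sequence, so reads may be shared. Mx2 stood at 2.22, 3 and 1.60 CPM in wild type naive and 7.51, 7.55 and 4.27 CPM in wild type SNLD1 libraries, a 2.89-fold rise (log2 1.53 ± 0.34 SE, adjusted p = 0.0338). In Mettl14cKO it stood at 1.79, 2.62 and 3.23 CPM and at 5.86, 6.62 and 4.07 CPM (log2 1.10, adjusted p = 0.21), also without overlap. Rsad2 encodes viperin, a radical SAM enzyme that makes a chain-terminating nucleotide. It stood at 10.3, 13.6 and 9.05 CPM in wild type naive and 27.1, 20.8 and 14.6 CPM in wild type SNLD1 libraries (log2 0.93 ± 0.23 SE, adjusted p = 0.058), and rose 2.05-fold in Mettl14cKO, from 10.01, 11.2 and 11.1 CPM to 22.2, 24.5 and 19.4 CPM (log2 1.03 ± 0.23 SE, adjusted p = 0.0459). The size of its change was thus nearly the same in both genotypes, on either side of the threshold.

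Cmpk2, a mitochondrial nucleotide kinase whose gene neighbours Rsad2, was singled out after its values were seen. It stood at 31.1, 40.1 and 29.2 CPM in wild type naive and 25.3, 28.7 and 23.7 CPM in wild type SNLD1 libraries (log2 -0.37 ± 0.18 SE, adjusted p = 0.693). In Mettl14cKO it stood at 38.3, 40.3 and 31.4 CPM in naive and 24.0, 20.4 and 25.0 CPM in SNLD1 libraries (log2 -0.66 ± 0.18 SE, adjusted p = 0.114). No injured library reached a naive one of its genotype, yet neither difference passed the test. The remaining effectors, Ifit2, Ifit3, Mx1, Ifitm3, Bst2, Xaf1, Ifi44 and Rtp4, were not called in either genotype, with log2 fold changes of 0.24 to 1.75 in wild type and -0.11 to 1.08 in Mettl14cKO.

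Immunity GTPases gave the most calls of any role, 3 of 7 in wild type (Iigp1, Gbp2 and Igtp) and 4 of 7 in Mettl14cKO (Iigp1, Igtp, Irgm1 and Irgm2). Of all tested genes 0.948% rose in wild type and 0.624% in Mettl14cKO. The median log2 fold change of the 7 was 0.88 in wild type and 0.90 in Mettl14cKO. In Mettl14cKO all 7 had injured libraries above every naive one, beside 8.32% of all tested genes. Iigp1, an effector GTPase that coats the vacuoles of intracellular parasites, stood at 13.0, 28.5 and 25.8 CPM in wild type naive and 94.1, 176 and 73.2 CPM in wild type SNLD1 libraries, a 5.12-fold rise (log2 2.36 ± 0.39 SE, adjusted p = 0.00312). In Mettl14cKO it went from 9.12, 27.8 and 37.0 CPM to 197, 186 and 220.0 CPM, an 8.13-fold rise (log2 3.02 ± 0.40 SE, adjusted p = 0.000443). The injured Mettl14cKO libraries lay close together, above all 3 injured wild type libraries.

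Igtp, Irgm1 and Irgm2 belong to the regulatory branch of the immunity-related GTPases, which keeps effectors such as Iigp1 off the cell's own membranes. Igtp rose from 59.0, 76.9 and 63.0 CPM to 125, 155 and 102 CPM in wild type (1.92-fold, log2 0.94 ± 0.18 SE, adjusted p = 0.0104) and from 38.3, 55.0 and 46.8 CPM to 87.2, 84.3 and 89.1 CPM in Mettl14cKO (1.86-fold, log2 0.90 ± 0.18 SE, adjusted p = 0.0236). The pair of rises was almost equal, from different starting levels. Irgm1 stood at 19.9, 29.3 and 22.4 CPM against 45.8, 52.7 and 33.2 CPM in wild type (log2 0.88 ± 0.23 SE, adjusted p = 0.0869) and rose from 20.3, 26.9 and 39.1 CPM to 56.3, 60.2 and 68.3 CPM in Mettl14cKO (2.13-fold, log2 1.09 ± 0.23 SE, adjusted p = 0.0319). Irgm2 stood at 6.87, 10.9 and 11.0 CPM against 17.8, 19.0 and 16.1 CPM in wild type (log2 0.88 ± 0.26 SE, adjusted p = 0.173) and rose from 11.96, 9.60 and 16.8 CPM to 33.4, 19.4 and 36.3 CPM in Mettl14cKO (2.31-fold, log2 1.21 ± 0.26 SE, adjusted p = 0.0361). None of the 3 genes had overlapping naive and injured libraries in either genotype. Igtp and Irgm2 are neighbours of like sequence on chromosome 11, so how reads were shared between them is uncertain.

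Gbp2, Gbp3 and Gbp7 encode guanylate-binding proteins, which assemble on microbes and their vacuoles, and lie together on chromosome 3. Gbp2 rose 2.05-fold in wild type, from 17.1, 24.8 and 20.8 CPM to 33.1, 63.0 and 31.8 CPM (log2 1.04 ± 0.24 SE, adjusted p = 0.0425). Its value in SNLD1 library 2 stood far above those of the other injured libraries, and that library is also the injured one rich in neutrophil markers. That library was also the highest of its group in the other immune marker sums and in satellite glia, Schwann and fibroblast markers. Without it and wild type naive library 2, the pair rich in neutrophil markers, Gbp2 had a log2 fold change of 0.78 and lost its call (adjusted p = 0.124). In Mettl14cKO Gbp2 stood at 23.6, 31.9 and 24.6 CPM against 38.0, 33.4 and 39 CPM (log2 0.46, adjusted p = 0.515). Gbp3 stood at 24.8, 32.6 and 33.5 CPM against 44.5, 51.5 and 33.1 CPM in wild type (log2 0.51, adjusted p = 0.439) and at 35.1, 36.7 and 49.7 CPM against 72.8, 75.1 and 67.6 CPM in Mettl14cKO (log2 0.82 ± 0.19 SE, adjusted p = 0.0567). Gbp7 stood at 73.9, 83.6 and 55.9 CPM against 119, 157 and 89.7 CPM in wild type (log2 0.78, adjusted p = 0.0702) and at 68.6, 78.2 and 78.1 CPM against 99.1, 93.7 and 117 CPM in Mettl14cKO (0.46, adjusted p = 0.401). Of the 3, only Gbp3 in wild type had a naive library above an injured one.

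Antigen processing was the role with the smallest median in both genotypes, 0.32 in wild type and 0.31 in Mettl14cKO, and none of its 3 members was called. Psmb8, a catalytic subunit of the immunoproteasome, stood at 11.3, 16.9 and 22.04 CPM in wild type naive and 33.0, 21.8 and 23.9 CPM in wild type SNLD1 libraries (log2 0.64, adjusted p = 0.56). In Mettl14cKO it stood at 17.6, 9.78 and 22.2 CPM against 26.3, 31.0 and 25.8 CPM (log2 0.73, adjusted p = 0.307). Psmb9, another such subunit, and Tap1, a subunit of the transporter that moves peptides into the endoplasmic reticulum, had log2 fold changes of 0.19 to 0.32.

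**Figure D2:**
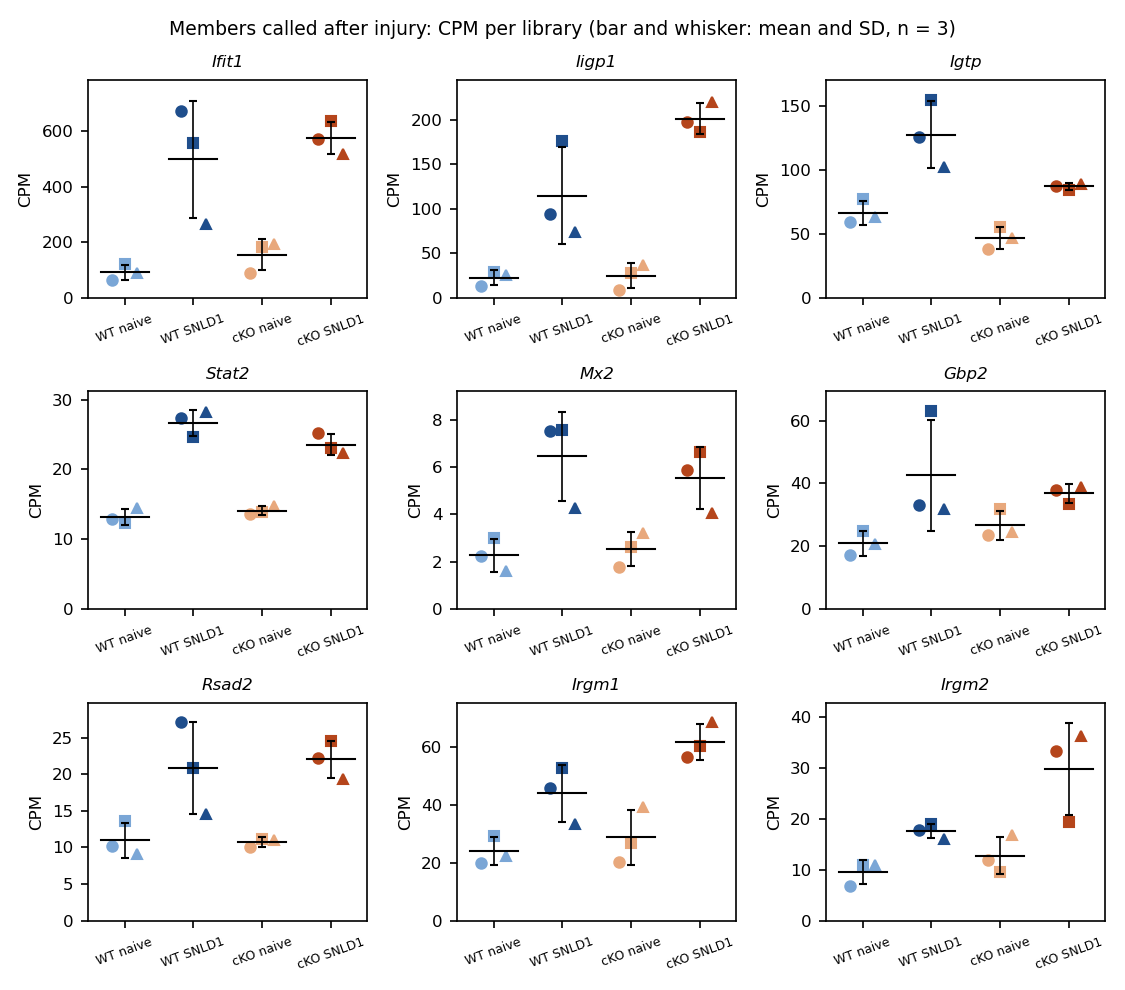
CPM of the 9 members called after injury in either genotype, on linear axes from 0, for wild type (WT) and Mettl14cKO (cKO) DRG; circles, squares and triangles are replicates 1, 2 and 3, and bar and whisker are mean and SD of 3 libraries. Injured libraries lie above naive ones of the same genotype in every panel, and wild type SNLD1 replicate 3 is the lowest of its group except for Stat2.

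**Figure D3:**
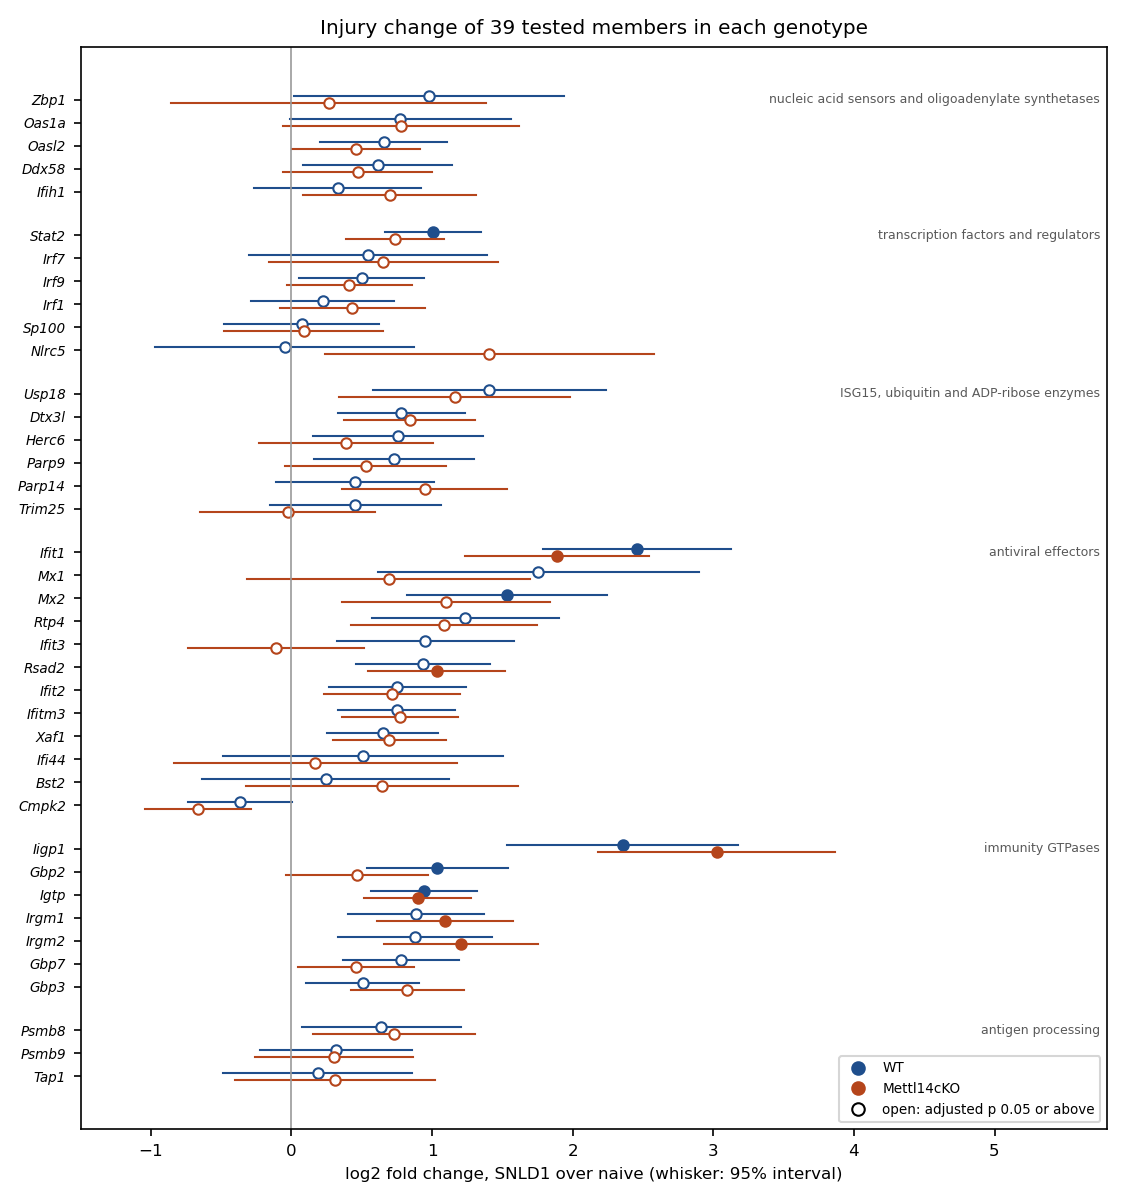
Log2 fold change of SNLD1 over naive for each of the 39 tested members, grouped by role, with 95% intervals from the edgeR fit; blue is wild type, red is Mettl14cKO, and filled symbols mark an adjusted p under 0.05. Nearly all points lie right of 0, with Iigp1 and Ifit1 farthest right in both genotypes and Cmpk2 left of 0 in both.

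Ifit1 and Iigp1 in both genotypes and Stat2 in wild type remained past the threshold when any 1 library of the compared groups was left out, with largest adjusted p of 0.00651 and 0.0242 for Ifit1, 0.0477 and 0.00483 for Iigp1 (wild type and Mettl14cKO in turn) and 0.0243 for Stat2. The other calls did not. In wild type, Igtp lost its call without naive library 1 (adjusted p = 0.0892) or 3 (0.0703). Mx2 lost it without naive 1 (0.149) or 3 (0.224) or SNLD1 1 (0.134) or 2 (0.120). Gbp2 lost it without naive 1 (0.261) or 3 (0.172) and fell to a log2 fold change of 0.64 without SNLD1 2 (0.234).

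In Mettl14cKO, Igtp lost its call without naive library 1 (adjusted p = 0.118) or 3 (0.108) or SNLD1 1 (0.103) or 2 (0.0509). Irgm1 kept it only without naive 3, and Rsad2 only without SNLD1 3, with p up to 0.128 and 0.185 otherwise. Irgm2 lost it without naive 1 (0.124) or 2 (0.170) or SNLD1 1 (0.179) or 3 (0.0968). The log2 fold changes of these genes moved little: 0.77 to 1.04 for Igtp, 0.89 to 1.37 for Irgm1, 1.04 to 1.44 for Irgm2 and 0.95 to 1.13 for Rsad2.

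Between genotypes no member passed the test in either condition, and these comparisons use the same libraries as the injury comparisons. In naive DRG 0 of 39 members differed, beside 0.173% of all tested genes higher and 0.113% lower in Mettl14cKO. DESeq2 also called 0, and 7 of 39 members had an unadjusted p under 0.05, beside 7.6% of all tested genes. Groups lay apart upwards for 3 members (Gbp3, Mx1 and Trim25) and downwards for 3 (Igtp, Nlrc5 and Xaf1), beside 6.11% and 4.65% of all tested genes. At SNLD1 0 of 39 differed, beside 0.948% higher and 0.512% lower. DESeq2 called 1 there, beside 229 genes higher and 187 lower among all 13291. With edgeR, 6 members had an unadjusted p under 0.05, beside 14.4% of all tested genes. Groups lay apart upwards for 6 (Ddx58, Gbp3, Ifit2, Iigp1, Irgm1 and Irgm2) and downwards for 1 (Igtp), beside 9.66% and 10.3%. Marker sums of some other cell types lay apart between the genotypes too, with no marker of these lists at 0 in any library. Single markers went both ways, so a sum does not speak for each marker of its list. In naive DRG 3 of the 6 fibroblast markers had log2 differences above 0 (range -0.54 to 0.62). For sensory neurons 1 of the 10 did (-0.84 to 0.06). At SNLD1 3 of the 6 fibroblast markers (-0.94 to 1.43) and 3 of the 6 satellite glia markers (-1.91 to 1.34) were above 0. The 6 fibroblast markers summed to 1745 to 1971 CPM in wild type and 1988 to 3418 CPM in Mettl14cKO naive libraries, and to 1720.3 to 2184 against 2631 to 4289 CPM at SNLD1, without overlap in either condition. The 6 markers of satellite glia, the cells that wrap sensory neurons, summed to 1129 to 1813 CPM in wild type and 684 to 715 CPM in Mettl14cKO SNLD1 libraries, without overlap, while the naive groups overlapped (1282 to 1991 against 619.9 to 1978 CPM). The sensory neuron markers summed to 16062 to 17250 CPM in wild type and 13410 to 15486 CPM in Mettl14cKO naive libraries, without overlap, and to 15534 to 17429 against 15126 to 15725 CPM at SNLD1, with overlap. Their part in the genotype comparisons was not tested.

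The members of smallest p between genotypes in naive DRG were Ifit3, Mx1 and Xaf1. Ifit3, a partner of Ifit1 in RNA binding, stood at 32.3, 56.6 and 37.9 CPM in wild type and 46.3, 128 and 72.4 CPM in Mettl14cKO naive libraries (log2 0.96 ± 0.30 SE, adjusted p = 0.326), the high value being that of library 2. Without that library the log2 fold change was 0.49. At SNLD1 Ifit3 stood at 86.6, 104 and 53.8 CPM in wild type and 71.8, 82.0 and 73.6 CPM in Mettl14cKO libraries, which overlap. Mx1 stood at 0.580, 0.545 and 0.532 CPM against 0.598, 2.44 and 2.23 CPM (log2 1.64 ± 0.55 SE, adjusted p = 0.389), levels of a few counts per library. At SNLD1 Mx1 stood at 2.61, 1.94 and 1.22 CPM against 3.37, 3.66 and 1.54 CPM, with overlap. Xaf1, an interferon-induced antagonist of the apoptosis inhibitor XIAP, stood at 61.0, 67.5 and 59.2 CPM against 44.8, 37.4 and 41.5 CPM (log2 -0.60 ± 0.19 SE, adjusted p = 0.335). Xaf1 levels did not overlap between the naive groups, and at SNLD1 they were 107, 113 and 74.4 CPM against 63.2, 84.0 and 53.0 CPM (log2 -0.55, adjusted p = 0.163).

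At SNLD1 the smallest p values belonged to Gbp3, Igtp and Irgm2, all of them GTPases. Gbp3 was higher in Mettl14cKO libraries without overlap in both conditions, with log2 differences of 0.42 (adjusted p = 0.643) in naive and 0.74 ± 0.19 SE (adjusted p = 0.0602) in injured DRG. Without wild type SNLD1 library 2 the latter passed the test (0.89, adjusted p = 0.0474). Gbp3 spans chr3:142560016-142573213, on the chromosome that also carries Mettl14 (chr3:123368295-123385990). Any part of that shared position in the difference was not tested. Igtp was lower in Mettl14cKO in both conditions, by log2 -0.51 (adjusted p = 0.442) and -0.55 ± 0.18 SE (adjusted p = 0.136), while its neighbour Irgm2 stood higher at SNLD1 by 0.75 ± 0.25 SE (adjusted p = 0.16).

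A test of whether the injury response itself differed between genotypes, the interaction term, called 0 members and 0 of all 13291 genes. DESeq2 called 0 members and 3 genes, and 1 member of 39 had an unadjusted p under 0.05, beside 3.7% of all tested genes. That member was Ifit3, whose change was log2 0.95 in wild type but -0.11 in the knockout, which differ by -1.06 with a 95% interval from -1.95 to -0.18 (adjusted p = 0.998). Without the filter on low counts the Ifit3 difference passed the test (adjusted p = 0.0467). With 1 library left out in turn it lay between -1.35 and -0.58, the latter without Mettl14cKO naive library 2. Its near-identical copy Ifit3b showed like changes of 0.80 and -0.37, so reads of the pair may be shared. Next came Nlrc5 (1.45, interval -0.04 to 2.95, adjusted p = 0.998) and Gbp2 (-0.57, interval -1.28 to 0.13, adjusted p = 0.998). With 1 library left out the Gbp2 difference lay between -0.73 and -0.18, the latter without wild type SNLD1 library 2, and no left-out library gave a call for Ifit3 or Gbp2. Nlrc5 stood at 1.64, 0.818 and 1.60 CPM in wild type naive, 0.920, 1.94 and 1.10 CPM in wild type SNLD1, 0.598, 0.349 and 0.497 CPM in Mettl14cKO naive and 1.60, 0.986 and 1.40 CPM in Mettl14cKO SNLD1 libraries, so its lowest group was the naive knockout. For the genes with the largest responses the intervals were wide as well: -1.47 to 0.33 for Ifit1 and -0.46 to 1.79 for Iigp1.

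Transcripts of the interferons themselves gave almost no counts. The 10 interferon genes looked up were Ifnb1, Ifng, Ifne, Ifnk and members of the Ifna and Ifnl families. Of these, 6 had no count in any of the 12 RNA-seq libraries, no gene exceeded 1 count in a library, and all 10 together gave 8 counts. A count of 0 allows up to 3 counts per library (counting error only), so transcription below that level was not detectable at this depth. The receptor chains were present and gave no call. Ifnar1 stood at 58.1, 42.1 and 39.4 CPM in wild type naive and 43.4, 43.8 and 43.4 CPM in wild type SNLD1 libraries (log2 -0.10, adjusted p = 1), and at 39.3, 42.1 and 51.9 CPM against 46.0, 35.9 and 49.9 CPM in Mettl14cKO (-0.02, adjusted p = 0.983). Ifnar2 stood at 9.28, 8.86 and 9.35 CPM against 8.12, 11.0 and 9.88 CPM in wild type (log2 0.08, adjusted p = 1) and at 8.97, 6.46 and 8.32 CPM against 8.88, 11.3 and 9.54 CPM in Mettl14cKO (0.32, adjusted p = 0.654). Ifnar1 levels overlapped between naive and injured libraries in both genotypes, and Ifnar2 levels overlapped as well.

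Among 106 further genes of the interferon pathway, 86 were tested. In wild type 3 of the 86 rose and 0 fell, beside 0.948% and 0.0752% of all tested genes. In Mettl14cKO 4 of the 86 rose and 0 fell, beside 0.624% and 0.0602% of all tested genes. The median log2 fold change of the 86 was 0.22 and 0.31, beside 0.75 and 0.69 for the members. By list, 1 of 46 other interferon-stimulated genes rose in each genotype, 0 of 8 receptor and JAK kinase genes, 1 of 8 signal factors and feedback genes in each, and 1 of 13 sensing and induction genes in wild type against 2 of 13 in Mettl14cKO. Class I antigen presentation, 11 tested genes such as B2m and H2-K1, gave 0 calls and medians of 0.04 and 0.26, low like those of Psmb9 and Tap1. Tmem173, which encodes the DNA-sensing adaptor STING, rose from 14.5, 14.2 and 7.30 CPM to 40.8, 59.8 and 47.3 CPM in wild type (log2 2.05 ± 0.25 SE, adjusted p = 8.12e-05) and from 9.71, 15.01 and 15.8 CPM to 46.2, 45.0 and 47.6 CPM in Mettl14cKO (1.77 ± 0.25 SE, adjusted p = 0.000806). Ifi204, a DNA sensor of the Ifi200 family, rose from 3.09, 4.77 and 2.96 CPM to 10.9, 14.8 and 6.83 CPM in wild type (log2 1.61, adjusted p = 0.00704) and from 3.29, 4.19 and 3.23 CPM to 11.7, 11.8 and 10.2 CPM in Mettl14cKO (1.66, adjusted p = 0.00958). Both genes lie upstream of interferon production in innate DNA sensing. Socs3, a feedback inhibitor of cytokine receptors that STAT3 induces, rose by log2 2.38 in wild type (adjusted p = 0.00944) and 3.33 in Mettl14cKO (adjusted p = 0.00291). Myd88, an adaptor of Toll-like and interleukin receptors, rose in Mettl14cKO (log2 1.43, adjusted p = 0.00394) and stood 0.97 higher in wild type (adjusted p = 0.0543). No pathway gene was called between genotypes or in the interaction.

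In MeRIP-seq, fragments carrying m6A are pulled down with an antibody, and a gene's IP level over its input level reads how much of its RNA carries the mark. Of the members, 40 were tested among 14705 genes, Oas2 being too low. IP over input called 0 of 40 members in naive and 0 of 40 at SNLD1, and 0% of all tested genes were called in either direction in each. The members with an unadjusted p under 0.05 numbered 1 and 1 (6.22% and 4.13% of all tested genes), and DESeq2 called 0 members. In naive DRG all 3 IP libraries lay above both inputs for 7 members and below them for 3, beside 12.7% and 16.5% of all tested genes; at SNLD1 these numbers were 5 and 5, beside 10.3% and 12.1%. Counts this near the background are not a result about the members.

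Rtp4, Xaf1, Ifit3 and Parp14, 4 members in all, had IP above input without overlap in both conditions, where 4.79% of all tested genes did. Rtp4, an interferon-induced receptor transporter protein, was the member with an unadjusted p under 0.05 in both conditions. It stood at 32.6 and 21.3 CPM in naive inputs and 93.9, 256 and 118 CPM in naive IP libraries (log2 2.53, unadjusted p = 0.00681, adjusted p = 0.71). At SNLD1 it stood at 51.1 and 39.8 CPM in inputs and 146, 179 and 163 CPM in IP libraries (log2 1.84, unadjusted p = 0.0332, adjusted p = 0.791). Every IP library was above every input of both conditions. Xaf1 stood at 57.7 and 59.2 CPM in naive and 51.1 and 63.6 CPM in SNLD1 inputs, against 78.9, 92.4 and 128 CPM and 157, 129.6 and 138 CPM in IP libraries. Its inputs were nearly level while all 3 injured IP libraries exceeded all 3 naive ones, but the lower SNLD1 input value rested on 43 counts. In wild type RNA-seq every SNLD1 library of Xaf1 lay above every naive one, without a call. The change of IP over input with injury had an unadjusted p under 0.05 for 0 members, Xaf1 included.

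Ifitm3, a membrane protein that hinders virus fusion, and Mx2 showed the opposite arrangement, with IP below input in both conditions, where 7.9% of all tested genes did. Ifitm3 stood at 201 and 133 CPM in naive and 297 and 278 CPM in SNLD1 inputs, against 48.0, 65.04 and 81.8 CPM and 96.0, 125 and 165 CPM in IP libraries (log2 -1.36 and -1.16, adjusted p = 0.71 and 0.791). In input and in IP alike, every SNLD1 library of Ifitm3 lay above every naive one.

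The change of IP over input with injury called 0 members and 0% of all genes, with 0 members at an unadjusted p under 0.05 (0.204% of all tested genes) and 0 by DESeq2. Within IP libraries alone and within inputs alone, SNLD1 against naive likewise called 0 members and 0% of genes; 0 members had an unadjusted p under 0.05 in each (0.843% and 0.857% of all tested genes), and DESeq2 called 0. All 3 SNLD1 IP libraries lay above all 3 naive ones for Ifitm3, Stat2 and Xaf1 and below them for Sp100, 3 and 1 of 40 members, beside 1.71% and 1.75% of all tested genes. Same-numbered IP libraries of both conditions varied together, so each pair was also read by itself. The fit above leaves this pairing out, and so do the adjusted p values given below for Stat2 and Igtp. With the replicate number as a block, the median SE within IP was 0.57 beside 0.96, and 6 genes but 0 members were called. Unadjusted p was then under 0.05 for 2 members within IP and 3 within inputs, beside 556 and 665 of 14705 genes. In all 3 pairs 16 of the 40 members were higher at SNLD1 and 2, Cmpk2 and Sp100, were lower, beside 16% and 17.9% of all tested genes. The 16 were Gbp2, Ifitm3, Igtp, Iigp1, Irf1, Irf9, Irgm2, Isg15, Mx1, Oas1a, Oasl2, Psmb8, Psmb9, Stat2, Xaf1 and Zbp1. Some rested on values near 0: in pair 2, Mx1 had 0 naive and 1 SNLD1 count and Isg15 had 0 and 2. Oas1a stood at 1.33 and 1.48 CPM in pair 1.

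Stat2 stood at 50, 41.5 and 27.3 CPM in naive IP libraries 1 to 3 and 69.7, 91.1 and 59.3 CPM in SNLD1 IP libraries, without overlap (log2 0.89, adjusted p = 1). Its inputs were 32.7 and 22.8 CPM in naive and 25.0 and 60.0 CPM at SNLD1, which overlap. Igtp stood at 80.1, 256 and 87 CPM in naive and 120.2, 442 and 168 CPM in SNLD1 IP libraries (log2 0.79, adjusted p = 1). Each injured library exceeded the naive one of the same number, although the groups overlap. Ifit1 stood at 199.99, 758 and 335 CPM in naive and 328, 1306 and 335 CPM in SNLD1 IP libraries. The second IP library was the highest of both groups for Igtp and Ifit1, and it is also the shallowest, with 846785 counts in naive and 1534778 at SNLD1. Cmpk2 stood at 91.2, 62.2 and 40.8 CPM in naive and 64.1, 26.0 and 32.4 CPM in SNLD1 IP libraries, lower in each pair, as in the RNA-seq of both genotypes.

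**Figure D4:**
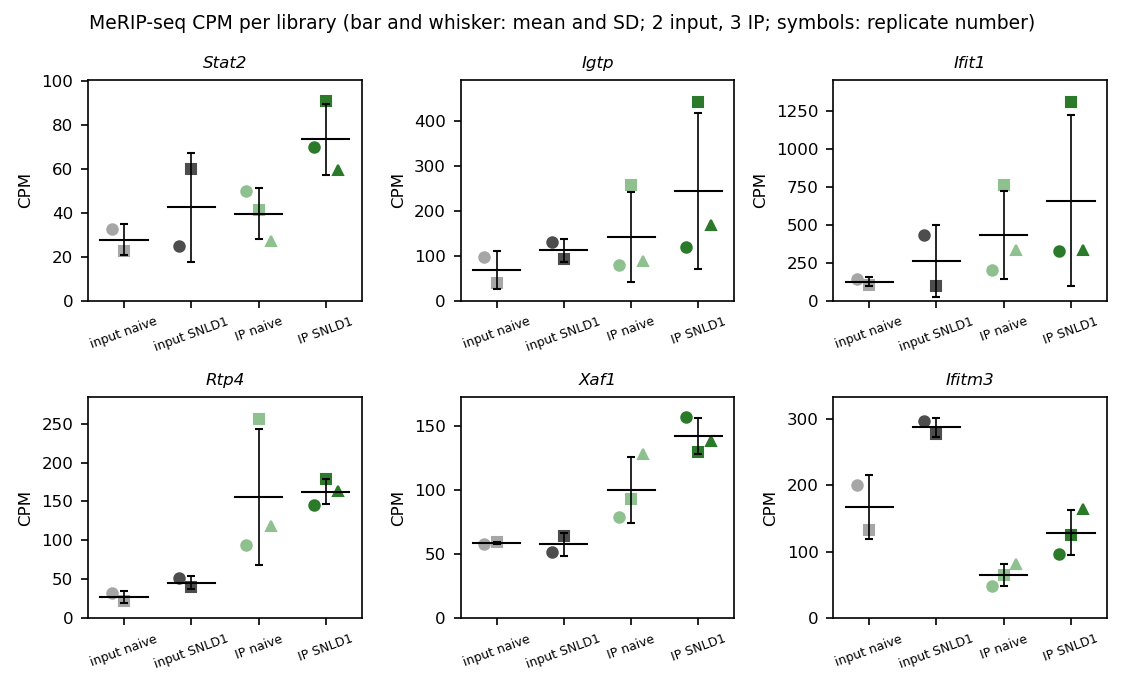
MeRIP-seq CPM of 6 members on linear axes from 0, in wild type input (grey, 2 libraries) and IP (green, 3 libraries) for naive and SNLD1; circles, squares and triangles are replicates 1, 2 and 3, and bar and whisker are mean and SD. IP lies above input for Rtp4 and Xaf1 and below it for Ifitm3 in both conditions, and the second IP library is far above the others for Igtp and Ifit1.

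The miCLIP lists mark single bases where antibody crosslinking left mutations in the reads, and each site comes with its pentamer, its reads and the share of them mutated. The naive list held 14446 sites, of which 9 fell in 5 members (12.2% of 41), and the injured list 18677 sites, of which 17 fell in 8 members (19.5%). Over all 23204 symbols with a gene span, 19.4% and 22.3% held a site. With 1 library in each condition there is no test. Each site in a member rested on 1 mutated read among 2 to 8 reads, except 1 naive site with 2 mutated of 4. In all, 3 members held sites in both lists, 10 in at least 1 and 31 in neither.

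Stat2 held 5 sites in the naive list and 0 in the injured one. They lie on the plus strand of chromosome 10 at 128284131 (GGACC), 128284141 (GGACA), 128291343 (GGACT), 128291356 (GGACT) and 128292564 (GAACC), in build mm10 with positions counted from 1. The site at 128291343 was the one with 2 mutated reads of 4. Of the 203 symbols with exactly 5 naive sites, 9 (4.43%) had 0 in the injured list, Stat2 among them. This stands beside the higher Stat2 level in injured DRG, in RNA-seq and in the IP libraries.

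Igtp held the only member site found in both lists, GGACA at chromosome 11 position 58207068, with 1 of 2 reads mutated in naive and 1 of 5 in injured DRG. A further Igtp site in the injured list, AGACT at 58207018, lies 50 bases away. Ifit1 held 0 naive and 3 injured sites, at 34640959 (GAACA), 34647812 (GGACA) and 34648690 (TGACT) on chromosome 19, all also within the span of Ifit1bl1. Oasl2 held 0 and 4 sites, among them GGACA at 114910951 on chromosome 5 with 1 of 8 reads mutated, the deepest site of any member. Trim25 held 0 and 3. The remaining called members with sites were Irgm1, with 1 in each list at different positions, and Rsad2, with 0 and 1. Ifit3 held 1 and 2, Irf9 0 and 1, and Isg15 1 and 0. Whether the number of listed sites follows the level of the transcript was not tested.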

How the data were processed

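RNA-seq (12 libraries) and MeRIP-seq (10 libraries) were read from the authors' deposited tables of unnormalised counts per gene symbol, and miCLIP from the authors' deposited lists of sites. Per the labels' protocols, poly(A) RNA went into Smart-seq2 libraries, which do not mark strand, so reads of a gene and of its antisense partner cannot be told apart. The submitters' processing notes name Trimmomatic, STAR, DESeq2 and build mm10; no counting tool and no caller of miCLIP sites is given in the sources used here. In the deposited miCLIP lists the value of a site equals its mutated reads over its reads to within 1e-05.

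Groups came from sample titles. Counts were filtered with filterByExpr, scaled by TMM and tested with edgeR 4.0.16 (glmQLFit and glmQLFTest, R 4.3.3), in 1 fit of 12 libraries and 1 of 10; Benjamini-Hochberg adjustment ran over all tested genes, and called means an adjusted p under 0.05. The fit was tested on simulated data. DESeq2 1.42.0, other size factors, no filter, a replicate block, the compared libraries alone and each library left out were tried as alternatives. Members, roles and pathway lists were chosen with earlier results of these data known, so no list was tested as a set. Values in every library are given for members called in RNA-seq, for the 3 of smallest p in each RNA-seq comparison and for the highest of each role by mean CPM, and Ifnar1, Ifnar2 and Mettl14 are always given; 1 further gene of the rule is not reported here. Sites were given to genes by the span in the GRCm38.p6 gene table and promoters come from RefSeq. Deviations from group means of same-numbered IP libraries across conditions correlated over genes by 0.468 to 0.734, so the numbers pair these libraries.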

Additional observations from a re-analysis of the deposited data

How the results depend on the processing

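Alternatives were read for each called member in its comparison and for the 3 members of smallest p in each RNA-seq comparison. These log2 fold changes kept their sign under every alternative that tested the gene. Of the comparisons with an alternative, 212 kept their side of the threshold, 33 lost a call and 6 gained one. Other values given above, such as those of Oasl2, Irf9, Usp18, Cmpk2 and Gbp7 and those of MeRIP-seq, were not in this check. In wild type the 6 members called after injury became 17 without the filter on low counts and 11 with DESeq2, and 3 to 9 when each library was left out in turn, with 3 without naive library 1 or naive library 3. Over all genes, 126 of 13291 rose in the main fit, 232 of 21184 without the filter and 190 with DESeq2. Without naive library 1 or 3 these were 60 and 63. In Mettl14cKO the 6 became 12 without the filter, 12 with DESeq2 and 10 with a replicate block, and 2 to 6 with libraries left out: 2 without naive 1 or SNLD1 1, and 3 without naive 2 or SNLD1 2. Over all genes, 83 of 13291 rose in the main fit, 230 of 21184 without the filter, 150 with DESeq2 and 117 with the block. Without naive 1 or SNLD1 1 these were 55 and 48, and without naive 2 or SNLD1 2 they were 57 and 68. The median log2 fold change over members stayed between 0.63 and 0.89 in wild type and between 0.57 and 0.82 in Mettl14cKO when libraries were left out, while the number of calls changed. With only the 6 libraries compared, 4 members were called in each genotype. Beside them, 96 of 12951 genes rose in wild type and 64 of 12567 in Mettl14cKO. Between genotypes in naive DRG the 0 became 2 without the filter, among them Ifit3 (adjusted p = 0.000134). Of 21184 genes, 107 were then called higher and 84 lower, beside 23 and 15 in the main fit. At SNLD1 the 0 became 3 without the filter, 1 with DESeq2 and 0 to 1 with libraries left out. Over all genes, 126 were called higher and 68 lower in the main fit, 334 and 236 without the filter and 229 and 187 with DESeq2. The 1 found without wild type SNLD1 library 2 stood beside 93 and 41. The interaction called 1 member without the filter, Ifit3 (adjusted p = 0.0467), beside 10 genes higher and 14 lower among 21184. The cause was not tested in these cases. Taking the mean over members in place of the median gave 0.872, 0.749 and 0.802 for the Mettl14cKO SNLD1 libraries. All MeRIP-seq counts stayed at 0, also without the 3 shallowest libraries, an alternative chosen after seeing the data, and the miCLIP counts did not move.

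RNA-seq replicate numbers were not taken to pair libraries, because deviations of same-numbered libraries correlated by -0.060 to 0.574, not all above 0.1. Those of different-numbered libraries correlated by -0.476 to 0.450. Whether some numbers share a batch was not tested. The replicate block gave 9 called members in wild type beside the 10 in Mettl14cKO and changed no other count of called members. Over all 13291 genes, 145 rose in wild type with the block. MeRIP-seq depth, from 846785 counts upwards, limits what the IP comparisons can resolve.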
